A study of Mus musculus with 36 samples.

Results

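The accessible chromatin around 4 transcriptional regulators of effector and memory T cells, Id2, Id3, Zeb1 and Zeb2, was examined by ATAC-seq in mouse CD4 T cells lacking HP1α or HP1γ. ATAC-seq uses a transposase that cuts open DNA, so that reads pile up in peaks at accessible sites. A consensus peak belonged to a gene when its midpoint was nearest to a protein-coding transcription start site (TSS) of that gene in GENCODE vM39 (GRCm39), or when the peak overlapped the gene body. The rule gave 113 of 71509 peaks, of which 59 belonged to Id2, 10 to Id3, 17 to Zeb1 and 27 to Zeb2. The rule uses positions only, but the 4 genes were picked with earlier results of these data known.

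The study compared 2 knockouts (KO), each with its own wild-type (WT) cells. HP1α KO cells came from Hp1a-/- mice, made by crossing a floxed Hp1a allele with CMV-cre so that the gene was lost in every tissue, and their WT cells came from Hp1a+/+ littermates. HP1γ KO cells came from Hp1g fl/fl mice carrying Cd4-cre, which deletes the gene in T cells, and their WT cells from floxed littermates without Cre. The KO and WT mice were young adults of a mixed 129/Sv and C57BL/6 background. Naive CD4 T cells were enriched from the spleen by negative selection, before any transfer. Conventional T cells (Tconv) were the donor-reactive Vβ6+ fraction, sorted from the spleen some weeks after naive cells had been injected into irradiated hosts that received bone marrow of the host strain and of a semi-allogeneic F1 strain in equal parts. In the last condition the same cells were injected together with WT regulatory T cells (Treg) expanded in culture, and here too Tconv were sorted. Hosts and Treg donors were of the C57BL/6 strain. The 2 genotypes of the 2 lines in 3 conditions made 12 groups of 3 libraries, 36 in all. The labels do not say which libraries came from different mice, so the p-values measure the spread between libraries, which may be technical in part.

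Id proteins are helix-loop-helix factors without a DNA-binding part. They pair with E proteins (Tcf3, Tcf4, Tcf12) and keep them off E-box sites. In T cells Id2 is known for its role in effector cells, and Id3 for naive and memory cells. Zeb1 and Zeb2 are zinc-finger repressors that bind E-boxes themselves and recruit Ctbp corepressors, with Zeb2 known for terminal effector cells and Zeb1 for memory cells. HP1α and HP1γ bind methylated histone H3 in heterochromatin.

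The 4 loci differed in layout. Id2 (ENSMUSG00000020644.11, chr12:25143798-25147282, minus strand) spans 3.5 kb, yet its 59 peaks covered 72.7 kb and reached 605.5 kb from its TSS. Most of its distal peaks lay inside long noncoding RNA genes upstream (Gm36287, Gm59563 and Gm36723). Id3 (ENSMUSG00000007872.5, chr4:135870808-135873066, plus strand) had 10 peaks within 42.8 kb. Zeb1 (ENSMUSG00000024238.17, chr18:5591851-5775467, plus strand) had a TSS peak and 15 intron peaks in its body of 183.6 kb, and 1 peak beyond it. Zeb2 (ENSMUSG00000026872.20, chr2:44873644-45007464, minus strand) had 4 peaks at its annotated start sites, and its farthest peaks lay 1255.6 kb upstream with no protein-coding TSS nearer. Peaks are named below by the distance of their midpoint from the nearest protein-coding TSS of the gene in kb, with a minus sign for upstream in the direction of transcription. Several Zeb2 intron peaks have a minus sign because they lie upstream of an internal start site. Had the nearest TSS of any gene been used, noncoding genes included, 36 of the 113 peaks would have stayed. Distance alone does not show which gene a peak acts on.

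Libraries held from 1.49 to 96.8 M reads in peaks (M stands for mega). The 3 shallowest lay in the HP1α line with Treg, followed by replicate 3 of its WT Tconv without Treg (6.20 M). With Treg, WT replicates 1 to 3 had 12.7, 1.49 and 3.20 M reads and KO replicates 1 to 3 had 50.7, 7.12 and 5.73 M. The study left out, for poor quality, WT replicate 3 and KO replicates 2 and 3 with Treg, so 2 WT libraries and 1 KO library remained, and values over all 18 libraries of the line are given beside the main values of the 15 kept. The labelled cell type was checked at the TSS peaks of marker genes, of which 5 of 6 T cell genes had a peak, with summed levels of 221 to 592 CPM (counts per M reads in peaks, scaled by TMM over the 36 libraries). B cell genes had a TSS peak in 2 of 6 cases (those without one included Cd79a, Cd79b and Ms4a1) and myeloid genes in 4 of 7 (none at Csf1r, Lyz2 or Fcer1g).

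The sequences at the centre of 6 peaks are shown because the results turn on them. The first 3 had the smallest p of their gene when HP1γ WT Tconv were compared with naive cells, and the last 3 when HP1γ KO was compared with WT in Tconv with Treg. They are GRCm39 plus-strand bases, 300 from the peak's middle or all 260 of the peak at Id2 -255.7 kb, and none overlapped an exon. Capitals mark matches on either strand to any E-box (CANNTG, which includes CAGGTG), to the AP-1 motif TGANTCA, to TGTGGT (Runx), to GGTGTGA (T-box) and to CTTTGAA (TCF/LEF).
Id2 -333.6 kb (chr12:25480711-25481010): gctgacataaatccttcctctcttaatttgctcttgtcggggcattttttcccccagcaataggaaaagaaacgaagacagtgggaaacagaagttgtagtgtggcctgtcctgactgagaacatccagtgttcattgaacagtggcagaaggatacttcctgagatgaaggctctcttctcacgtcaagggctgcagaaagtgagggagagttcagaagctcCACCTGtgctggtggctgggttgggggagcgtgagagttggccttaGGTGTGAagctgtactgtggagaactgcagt
Id3 -8.6 kb (chr4:135862051-135862350): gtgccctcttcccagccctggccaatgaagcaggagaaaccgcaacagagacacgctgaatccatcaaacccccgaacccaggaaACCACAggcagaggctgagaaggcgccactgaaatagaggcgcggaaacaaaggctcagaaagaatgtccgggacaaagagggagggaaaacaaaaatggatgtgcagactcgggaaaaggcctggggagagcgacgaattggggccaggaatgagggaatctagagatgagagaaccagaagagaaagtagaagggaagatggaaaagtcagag
Zeb2 7.0 kb (chr2:44993146-44993445): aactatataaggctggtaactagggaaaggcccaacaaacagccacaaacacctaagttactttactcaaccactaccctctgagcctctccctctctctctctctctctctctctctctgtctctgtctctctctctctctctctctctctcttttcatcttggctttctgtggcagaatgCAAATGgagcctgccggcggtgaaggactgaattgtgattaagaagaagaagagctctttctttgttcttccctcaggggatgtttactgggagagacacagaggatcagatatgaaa
Id2 -255.7 kb (chr12:25402891-25403150): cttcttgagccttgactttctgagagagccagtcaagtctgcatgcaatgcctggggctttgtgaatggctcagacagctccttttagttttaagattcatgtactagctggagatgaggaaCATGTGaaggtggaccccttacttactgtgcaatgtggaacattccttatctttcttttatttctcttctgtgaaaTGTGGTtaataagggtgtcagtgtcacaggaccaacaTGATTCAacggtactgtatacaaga
Id3 -36.5 kb (chr4:135834136-135834435): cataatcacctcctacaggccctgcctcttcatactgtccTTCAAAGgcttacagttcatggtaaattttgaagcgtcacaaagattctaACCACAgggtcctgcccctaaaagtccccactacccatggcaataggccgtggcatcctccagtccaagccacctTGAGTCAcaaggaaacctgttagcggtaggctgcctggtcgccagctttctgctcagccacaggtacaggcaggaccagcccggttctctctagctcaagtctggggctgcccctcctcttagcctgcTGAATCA
Zeb2 -1253.9 kb (chr2:46261201-46261500): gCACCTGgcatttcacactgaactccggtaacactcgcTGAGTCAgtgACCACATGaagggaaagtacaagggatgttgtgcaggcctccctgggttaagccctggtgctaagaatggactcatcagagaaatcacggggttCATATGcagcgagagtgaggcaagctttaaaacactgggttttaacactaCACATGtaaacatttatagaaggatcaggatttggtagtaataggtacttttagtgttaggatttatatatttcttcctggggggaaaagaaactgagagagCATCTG
The Id2 peak at -333.6 kb held a CAGGTG and a T-box match, whereas the Zeb2 peak at 7.0 kb held a single E-box and none of the other motifs. The Id3 peak at -36.5 kb held 2 AP-1 matches. The Zeb2 peak at -1253.9 kb held 5 E-boxes, 1 of them a CAGGTG.

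The TSS peaks gave the level of each gene's promoter region. Levels between genes were compared as CPM per kb of peak. In naive cells the Zeb1 TSS peak (Interval_32270, chr18:5590231-5595380) was the most accessible, with a lowest, median and highest library of 35.1, 42.2 and 58.7 CPM per kb. The Id3 TSS peak (Interval_48703, chr4:135870261-135872730) followed with 23.1, 27.0 and 29.2, then that of Id2 (Interval_14554, chr12:25141851-25151260) with 16.2, 17.4 and 19.9. The most open Zeb2 TSS peak (Interval_38039, chr2:44998261-45001960) had 5.66, 6.36 and 7.92. The naive ranges of the 4 genes did not overlap. In Tconv the Zeb1 peak ranged from 22.8 to 32.7 CPM per kb, Id2 from 14.1 to 25.4, Id3 from 11.1 to 22.0 and Zeb2 from 8.42 to 12.6. In Tconv with Treg (kept libraries) the ranges were 20.6 to 32.2 for Zeb1, 10.3 to 21.5 for Id2, 10.3 to 19.3 for Id3 and 7.74 to 14.0 for Zeb2. Thus the order of naive cells was retained for Zeb1 at the top and Zeb2 at the bottom by the median, while Id2 and Id3 overlapped after transfer.

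**Figure D1:**
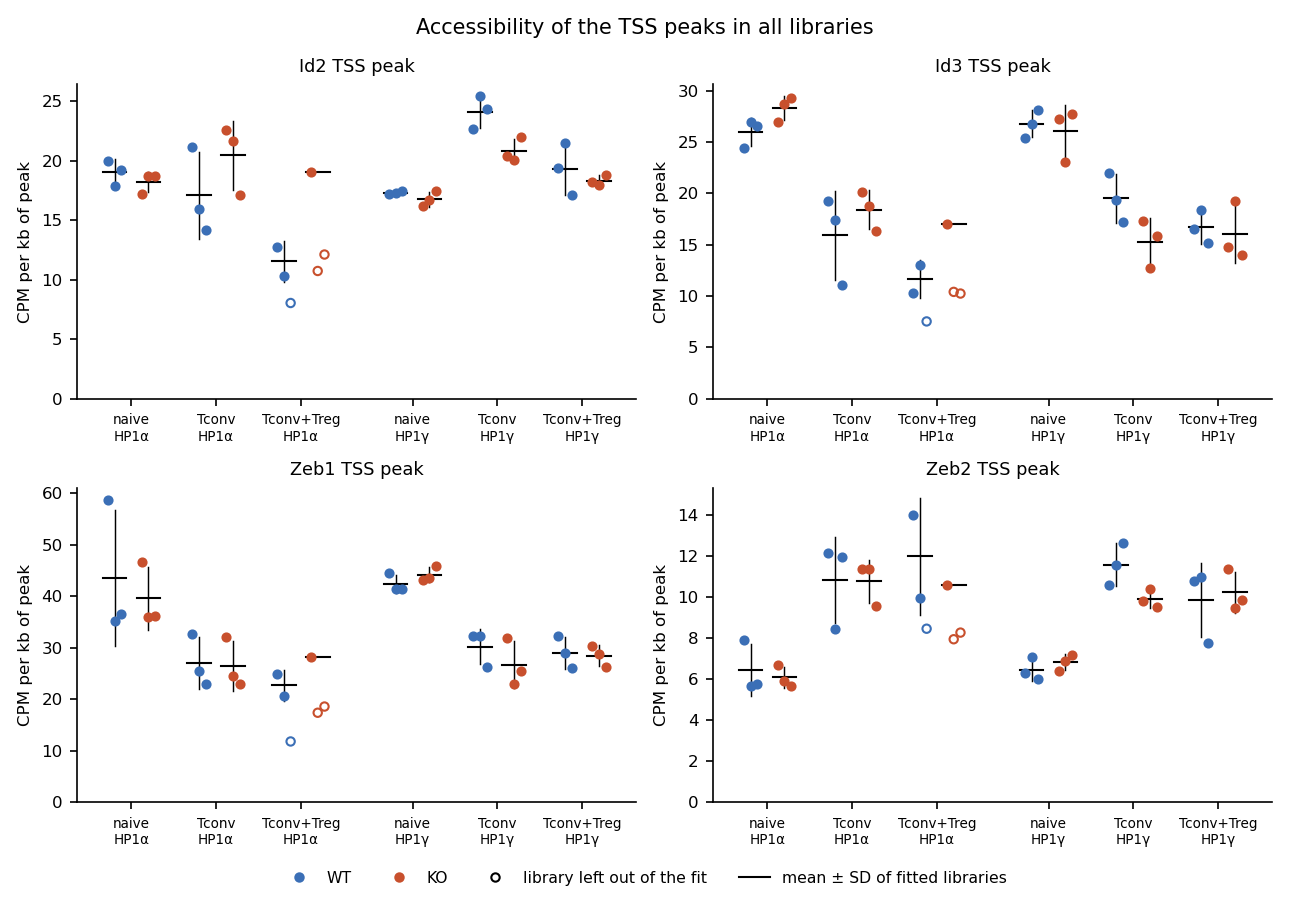
Accessibility of the TSS peaks of Id2, Id3, Zeb1 and Zeb2, as CPM per kb of peak (y axis, from 0), in every library by condition, line and genotype (x axis). Open points are the 3 libraries left out by the study, and black bars show the mean and SD of the libraries kept. For Id3 and Zeb1 all naive libraries lie above all others, for Zeb2 they lie at the bottom, with the highest naive library (7.92) just above the lowest kept one with Treg (7.74), and for Id2 naive libraries lie within the range of the others.

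Among the 12 groups ordered by their mean, the 4 naive groups came first for Id3, from 28.3 ± 1.18 (SD, n = 3) CPM per kb in HP1α KO to 26.0 ± 1.33 (SD, n = 3) in HP1α WT. The highest other group was HP1γ WT Tconv at 19.5 ± 2.39 (SD, n = 3), and its libraries did not overlap those of the naive groups. The naive groups also led for Zeb1, from 44.1 ± 1.53 (SD, n = 3) in HP1γ KO to 39.6 ± 6.16 (SD, n = 3) in HP1α KO, against 30.3 ± 3.51 (SD, n = 3) in HP1γ WT Tconv. For Zeb2 they came last, from 6.82 ± 0.392 (SD, n = 3) in HP1γ KO to 6.09 ± 0.513 (SD, n = 3) in HP1α KO, below 9.85 ± 1.82 (SD, n = 3) in HP1γ WT Tconv with Treg, the next group, whose libraries did not overlap those of naive HP1γ KO. Within the naive groups, and among the groups after transfer, neighbours in these 3 orders overlapped. Id2 had no such order. HP1γ WT Tconv stood at the top with 24.1 ± 1.41 (SD, n = 3), apart from the next group, and HP1α WT Tconv with Treg at the bottom with 11.6 ± 1.73 (SD, n = 2). Between these ends neighbours overlapped, except that the single kept HP1α KO library with Treg (19.0) lay just above the next group and the bottom group lay below naive HP1γ KO.

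To ask how the 4 loci change between naive cells and the transferred, alloreactive Tconv, WT cells of both lines were compared. A peak was called at an edgeR adjusted p under 0.05, with Benjamini-Hochberg adjustment over all peaks, where the groups also differed by more than 1 on the log2 scale in either direction. In the HP1γ line 67 members were called higher in Tconv and 12 lower. Over all peaks 24.5% were called higher and 22.0% lower. Of the Id2 peaks 45 of 59 rose and 2 fell, and of the Zeb2 peaks 21 of 27 rose and 1 fell, with a median log2 fold change of 2.80 and 2.89 over the peaks of each gene against 0.08 over all peaks. Id3 and Zeb1 did not show this. Id3 had 0 peaks called higher and 3 of 10 lower (median -0.26), and Zeb1 had 1 of 17 higher and 6 lower (median -0.67). The shares called lower, 30.0% and 35.3%, stood not far from that of all peaks.

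The Id2 peak with the smallest p lay at -333.6 kb (Interval_14607, chr12:25479691-25482030), in Gm36723. It had 4.39, 4.68 and 4.83 CPM in naive HP1γ WT cells and 30.4, 31.9 and 30.6 in Tconv. All Tconv libraries were above all naive ones, and the log2 fold change was 2.80 ± 0.16 (SE), with an adjusted p of 2.92e-11. For Zeb2 it was the intron peak at 7.0 kb (Interval_38038, chr2:44992621-44993970). Its libraries had 0.479, 0.502 and 0.476 CPM when naive and 15.8, 16.7 and 15.4 CPM in Tconv. This site was thus nearly closed in naive cells, and the log2 fold change was 5.10 ± 0.27 (SE, adjusted p 1.38e-11). At the most open TSS peak of each gene the change was smaller, with log2 fold changes of 0.54 for Id2 and 0.90 for Zeb2, both at an adjusted p under 0.05 but not past the threshold on the fold change. Of the other 3 start-site peaks of Zeb2, the small one at an internal start (Interval_38028) was called higher, with 2.75 ± 0.40 (SE, adjusted p 4.71e-06). The exceptions among the peaks of these genes were the lower calls at Id2 -121.3 kb and -503.9 kb and at Zeb2 43.4 kb (downstream), with log2 fold changes of -1.77, -1.79 and -2.13 (Interval_14568, Interval_14611 and Interval_38024).

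The 3 Id3 peaks called lower lay between -20.1 and -8.6 kb, upstream of the gene. At -8.6 kb (Interval_48701, chr4:135861911-135862490) the naive HP1γ WT libraries had 3.34, 3.16 and 3.30 CPM and the Tconv libraries 1.16, 0.912 and 1.02 CPM. The groups did not overlap, and the log2 fold change was -1.59 ± 0.19 (SE, adjusted p 5.13e-07). The Id3 TSS peak had -0.39 ± 0.13 (SE). At Zeb1 5 of the 6 lower calls were intron peaks, led by the one at 14.2 kb (Interval_32276, chr18:5606941-5608700). That peak had 20.5, 20.4 and 21.0 CPM in naive HP1γ WT cells against 6.70, 5.22 and 3.90 CPM in Tconv, a log2 fold change of -1.88 ± 0.16 (SE, adjusted p 5.86e-09). The exception at Zeb1 was the intron peak at 146.9 kb (Interval_32285, chr18:5740401-5740700), called higher with 3.28 ± 0.61 (SE, adjusted p 5.86e-05). So peaks of opposite direction stood within 1 gene body.

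**Figure D2:**
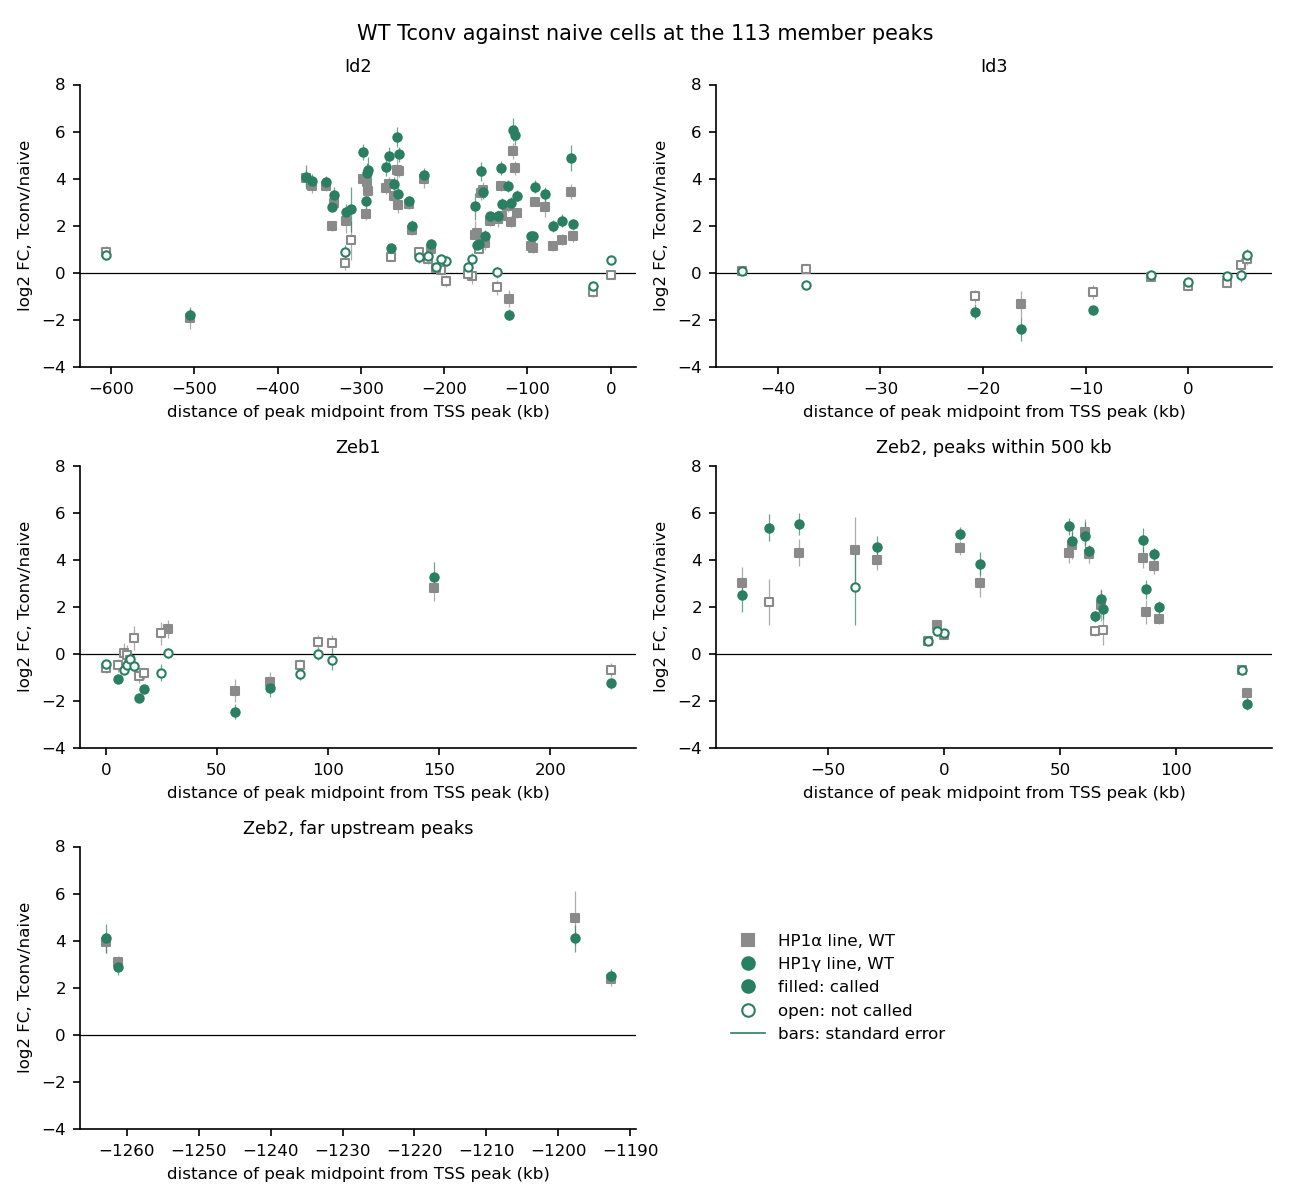
Log2 fold change of WT Tconv against naive cells (y axis) at each of the 113 member peaks, by distance of the peak's midpoint from the gene's TSS peak in kb (x axis), for the HP1α and the HP1γ line. Bars are standard errors and filled points are called peaks. Most Id2 and Zeb2 peaks lie well above 0 in both lines. Exceptions include the Id2 TSS peak and the Id2 peaks over 400 kb away. Id3 and Zeb1 peaks lie mostly at or below 0 and are most negative in a few upstream (Id3) or intron (Zeb1) peaks.

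The HP1α line shares no library with the HP1γ line. In its WT cells 64 members were called higher and 6 lower (24.9% and 17.5% of all peaks). Per gene these were 42 higher and 2 lower for Id2, 0 and 1 for Id3, 2 and 2 for Zeb1, and 20 and 1 for Zeb2. At Id3 and Zeb1 the shares called lower were below that of all peaks. The 42 Id2 peaks called higher were all called in the HP1γ line too, where they made up 93.3% of the calls, and 18 Zeb2 peaks were called in both (90.0% of the HP1α and 85.7% of the HP1γ calls). The 6 lower calls were all called in the HP1γ line, as 50.0% of its lower calls. The share of all called peaks common to both lines was not counted. The overlap is therefore not shown to be particular to these loci. The Zeb2 peak at 7.0 kb again led its gene, with 0.457, 0.651 and 0.669 CPM in naive HP1α WT cells and 14.5, 8.46 and 20.5 CPM in Tconv, a log2 fold change of 4.49 ± 0.31 (SE, adjusted p 2.08e-09). For Id2 the peak at -131.2 kb (Interval_14571, chr12:25277631-25279260) had the smallest p. There naive HP1α WT libraries had 1.07, 0.707 and 1.02 CPM and Tconv libraries 12.6, 8.89 and 10.7 CPM, with 3.69 ± 0.21 (SE, adjusted p 2.74e-10). The Id2 TSS peak did not pass the test in this line (log2 fold change -0.07, adjusted p 0.678). The median over the Zeb2 peaks was 3.03, or 2.65 with the 4 peaks that had at most 3 counts in every naive WT library held at their bound.

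In KO cells, too, the calls at Id2 and Zeb2 were mostly higher in Tconv than in naive cells. HP1γ KO cells had 63 members higher and 13 lower (22.4% and 20.6% of all peaks), with 42 Id2 and 21 Zeb2 peaks higher, and HP1α KO cells 66 and 11 (23.5% and 19.0%), with 44 Id2 and 21 Zeb2 peaks higher. The median log2 fold change over the Zeb2 peaks was 2.04 in HP1γ KO cells and over the Id2 peaks 2.02. In HP1α KO cells it was 3.05 over the Zeb2 peaks, or 2.63 with the 1 peak at the count floor held at its bound, and 2.03 over the Id2 peaks. At the Zeb2 peak at 7.0 kb the HP1γ KO libraries had 1.65, 0.869 and 0.586 CPM when naive and 12.4, 9.77 and 12.5 CPM in Tconv. Its log2 fold change was 3.75 ± 0.30 (SE). Id3 had 3 lower calls in each KO, and Zeb1 had 5 lower calls in each. Whether the change differed between KO and WT cells was not tested as such. In bulk samples, fewer cells of a type and less accessibility per cell cannot be told apart. Beside these comparisons, the CD8 T cell marker Cd8b1 had 29.5 to 35.9 CPM at its TSS peak in naive cells and 2.66 to 10.5 CPM after transfer, and the other CD8 gene, Cd8a, had no TSS peak. Myeloid genes summed to 30.5 to 41.5 CPM in naive cells and 43.8 to 56.0 CPM in Tconv (in HP1γ WT cells the means were 4.02 and 14.5 CPM at Cebpa, but 4.89 and 3.27 at Itgam and 16.5 and 17.2 at Spi1), and Treg genes to 170 to 237 CPM and 104 to 162 CPM. The part of these markers in the results was not tested.

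To ask whether HP1γ shapes the 4 loci, KO was compared with WT within each condition. In naive cells 0 members were called by edgeR, against 0.140% of all peaks. An unadjusted p under 0.05 was found for 9 of the 113 members and 6420 of all 71508 peaks. DESeq2 called 14, all of them higher in KO, but the share of all peaks that DESeq2 called was not worked out. The edgeR calls over all peaks were also mostly higher in KO (0.133% of all peaks, against 0.00699% lower). The Zeb2 peaks leaned upward, with 24 of 27 above 0 and a median log2 fold change of 0.86 (0.83 with the 2 peaks at the count floor held at their bound). This rested mostly on KO replicates 1 and 2 (33.9 and 32.4 M reads in peaks), in which 20 and 19 of the 27 Zeb2 peaks lay above all WT libraries, against 10 in KO replicate 3 (82.4 M). Of all peaks, 37.2%, 37.9% and 31.4% lay above all WT libraries in KO replicates 1 to 3. Over the Zeb2 peaks the median difference in log2 CPM from the WT mean was 1.23, 1.01 and 0.16 in these 3 libraries. Over all peaks the median log2 fold change was 0.03, and over the Id2, Id3 and Zeb1 peaks it was 0.16, -0.06 and -0.12. The member with the smallest p at Id2 lay at -90.2 kb (Interval_14561, chr12:25236871-25238070). It had 1.25, 1.53 and 1.09 CPM in WT and 3.42, 2.74 and 2.84 CPM in KO naive cells. The groups did not overlap, but the adjusted p was 0.302 (log2 fold change 1.23 ± 0.40, SE). In the same comparison Treg genes summed to 170 to 180 CPM in WT and 184 to 207 CPM in KO (mean at Ikzf2 51.4 and 74.8 CPM, at Foxp3 123 and 120 CPM). Myeloid genes summed to 35.1 to 36.2 and 30.5 to 33.8 CPM. Their means were 16.5 and 13.2 at Spi1, 10.2 and 8.89 at Cd14 and 4.89 and 4.19 at Itgam, but 4.02 and 5.52 at Cebpa. The part of both lists in the values was not tested. Tconv had 13.8 to 16.6 CPM in WT and 12.8 to 21.2 CPM in KO at the Id2 peak at -90.2 kb.

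In Tconv without Treg 2 members were called lower in HP1γ KO and 0 higher, against 1.66% and 1.69% of all peaks. At Id2 -123.2 kb (Interval_14569, chr12:25270091-25270850) WT libraries had 9.24, 9.52 and 7.21 CPM and KO libraries 4.03, 5.77 and 3.71 CPM, so that KO was lower by just over the threshold on the log2 scale (SE 0.19, adjusted p 0.00571). At the Zeb2 intron peak at -24.6 kb (Interval_38033, chr2:44937121-44937860) WT libraries had 6.19, 5.15 and 5.43 CPM and KO libraries 3.03, 2.44 and 2.56 CPM, or -1.05 ± 0.20 (SE, adjusted p 0.00573). Both peaks had risen from naive cells to Tconv, and at both the WT and KO libraries did not overlap. They lay at the threshold on the fold change and both calls were lost without WT replicate 1, while without WT replicate 3 the count was 9 and without KO replicate 1 it was 8. Without WT replicate 2, KO replicate 2 or KO replicate 3 it was 1. Of the Id2 peaks 49 of 59 lay below 0, with a median of -0.33 against 0.02 over all peaks. Cd8b1 had 2.66 to 4.34 CPM in WT and 4.83 to 5.62 CPM in KO, and Klrd1 had means of 6.73 and 4.57 CPM. Members of 1 list differed in direction. Cebpa had 14.5 and 23.8 CPM, against 17.2 and 13.6 at Spi1, 3.27 and 2.40 at Itgam, and Cd14 had 11.9 in KO, close to WT. Ikzf2 had 36.4 and 51.7 CPM and Foxp3 116 and 103 CPM. The part of these markers in the result was not tested.

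With Treg, 27 members were called in HP1γ KO Tconv, 8 higher and 19 lower than in WT, against 6.48% and 5.38% of all peaks. Id2 held 17 of the lower calls and 3 of the higher ones. Its median log2 fold change was -0.65, and 50 of its 59 peaks lay below 0, against a median of -0.02 over all peaks. Zeb2 had 3 higher and 2 lower calls (median -0.18), and Id3 and Zeb1 had 1 higher call each (medians 0.05 and -0.06). None of the 4 main TSS peaks was called. The lower Id2 calls were all distal. They numbered 0 of 9 peaks from 1 to 100 kb, 7 of 20 from 100 to 200 kb, 8 of 19 from 200 to 300 kb, 2 of 8 from 300 to 400 kb and 0 of 2 beyond. Of these 17 peaks, 15 (88.2%) were also called higher in Tconv than in naive cells in the HP1α line, whose libraries the comparison does not use, and they were 35.7% of the 42 Id2 peaks called there. These 42 were themselves 71.2% of all Id2 peaks, so that most of the locus shared this property.

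The strongest of them lay at -255.7 kb (Interval_14594, chr12:25402891-25403150), in Gm36723. With Treg the HP1γ WT libraries had 1.56, 2.02 and 1.09 CPM and the KO libraries 0.289, 0.614 and 0.239 CPM. The groups did not overlap, and the log2 fold change was -2.02 ± 0.31 (SE, adjusted p 0.000147). Without Treg the same peak had 1.74, 2.03 and 1.58 CPM in WT and 1.52, 1.16 and 0.938 CPM in KO, and was not called (-0.58 ± 0.22, SE, adjusted p 0.121). The sequence of this peak, given above, held an AP-1, a Runx and an E-box match. The peak was a small one, with 9 to 81 counts in these libraries with Treg. A larger peak at Id2 -123.2 kb, lower in KO without Treg as described, had -1.44 ± 0.26 (SE, adjusted p 0.00129) with Treg.

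Not all of the Id2 locus went down. The peak at -208.8 kb (Interval_14585, chr12:25355411-25356840), in Gm36723, had 17.7, 15.3 and 12.8 CPM in WT and 44.1, 31.8 and 41.6 CPM in KO with Treg. Its groups were well apart, and the log2 fold change was 1.32 ± 0.22 (SE, adjusted p 0.000722). This peak did not pass the test between WT Tconv and naive cells in either line. The other higher Id2 calls lay at -58.3 kb, a call lost with the replicate number as a block (0.98, adjusted p 0.0208), and at -310.6 kb (1.79 ± 0.43, SE, adjusted p 0.00585). With the block 28 members were called, 7 higher and 21 lower.

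At Id3 the peak at -36.5 kb (Interval_48698, chr4:135833801-135834770), an intergenic site upstream, was higher in KO. With Treg it had 9.74, 6.60 and 6.71 CPM in WT and 22.1, 17.0 and 16.6 CPM in KO, a log2 fold change of 1.24 ± 0.16 (SE, adjusted p 0.000103). Without Treg the HP1γ WT libraries had 6.13, 5.66 and 5.01 CPM and the KO libraries 7.49, 7.75 and 6.15 CPM, and naive cells had 6.62 to 9.05 CPM over both genotypes. So the KO libraries with Treg stood above all others of this line. At Zeb1 the intron peak at 101.0 kb (Interval_32284, chr18:5693991-5695160) had 3.27, 2.51 and 2.05 CPM in WT and 10.5, 3.46 and 7.26 CPM in KO with Treg. The groups did not overlap (1.37 ± 0.37, SE, adjusted p 0.0147), but the call was lost without KO replicate 1 or WT replicate 2.

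At Zeb2 the higher calls were the far upstream peaks. The one at -1253.9 kb (Interval_38049, chr2:46260731-46261970) had 6.39, 7.44 and 4.71 CPM in WT and 21.9, 12.7 and 24.3 CPM in KO with Treg, a log2 fold change of 1.59 ± 0.22 (SE, adjusted p 0.000155). Without Treg WT libraries had 6.43, 5.51 and 5.85 CPM and KO libraries 11.1, 10.3 and 10.5 CPM. The groups were apart there too, with 0.85 ± 0.22 (SE, adjusted p 0.0326), under the threshold on the fold change. Its neighbour at -1255.6 kb had 1.59 ± 0.30 (SE, adjusted p 0.00157) with Treg, and the peak at -1190.4 kb 1.17 ± 0.29 (SE, adjusted p 0.00729). These 3 sites lie in 1 stretch far from any protein-coding start. The lower calls lay at -22.0 kb (in an intron) and at -68.1 kb (Interval_38045, chr2:45075321-45075720). At -68.1 kb WT libraries with Treg had 1.44, 1.72 and 0.904 CPM and KO libraries 0.136, 0.527 and 0.532 CPM (-1.90 ± 0.41, SE, adjusted p 0.00312).

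**Figure D3:**
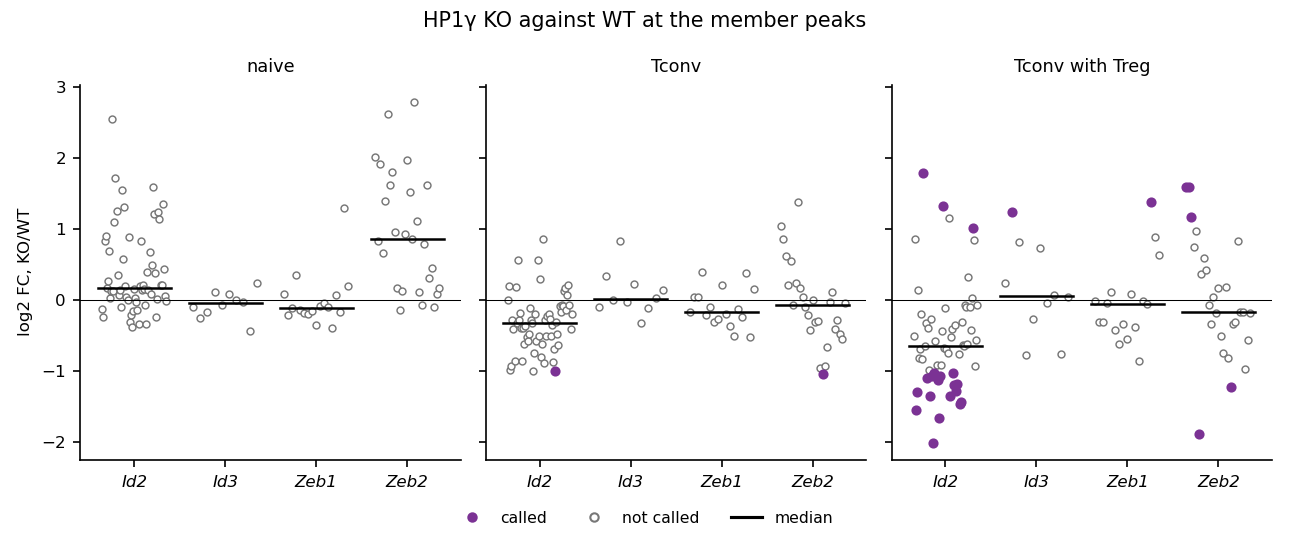
Log2 fold change of HP1γ KO against WT (y axis) for each peak of Id2, Id3, Zeb1 and Zeb2 (x axis) in naive cells, Tconv and Tconv with Treg (panels). Filled points are called peaks. Naive cells have no called peak and a Zeb2 cloud above 0, Tconv have 2 lower calls, and with Treg most Id2 peaks lie below 0 with 17 lower calls while 8 members of the 4 genes are called higher.

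Marker genes of other cells moved with this comparison. Summed over the genes with a TSS peak, B cell genes had 9.96 to 13.4 CPM in HP1γ WT and 16.2 to 20.5 CPM in KO with Treg. Myeloid genes had 43.7 to 49.3 CPM in WT and 57.9 to 74.2 in KO, where the mean at Cebpa was 19.5 in WT and 41.8 in KO while Spi1 (14.6 and 13.3), Cd14 (10.2 and 9.87) and Itgam (2.51 and 1.05) were not higher in KO. The 2 Treg genes summed to 125 to 161 CPM in WT and 168 to 174 CPM in KO, with means of 43.0 and 74.0 at Ikzf2 and of 100 and 97.8 at Foxp3. The NK cell gene Klrd1 had 5.24 to 7.42 CPM in WT and 2.32 to 3.08 in KO, while Ncr1 and Klrb1c had no TSS peak. Their part in the result was not tested. The number of calls also depended on the libraries. It was 11 without WT replicate 2, 12 without KO replicate 1, and 14 with the 2 groups fitted alone. With loess offsets in place of TMM the 24 calls were split into 12 higher and 12 lower.

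**Figure D4:**
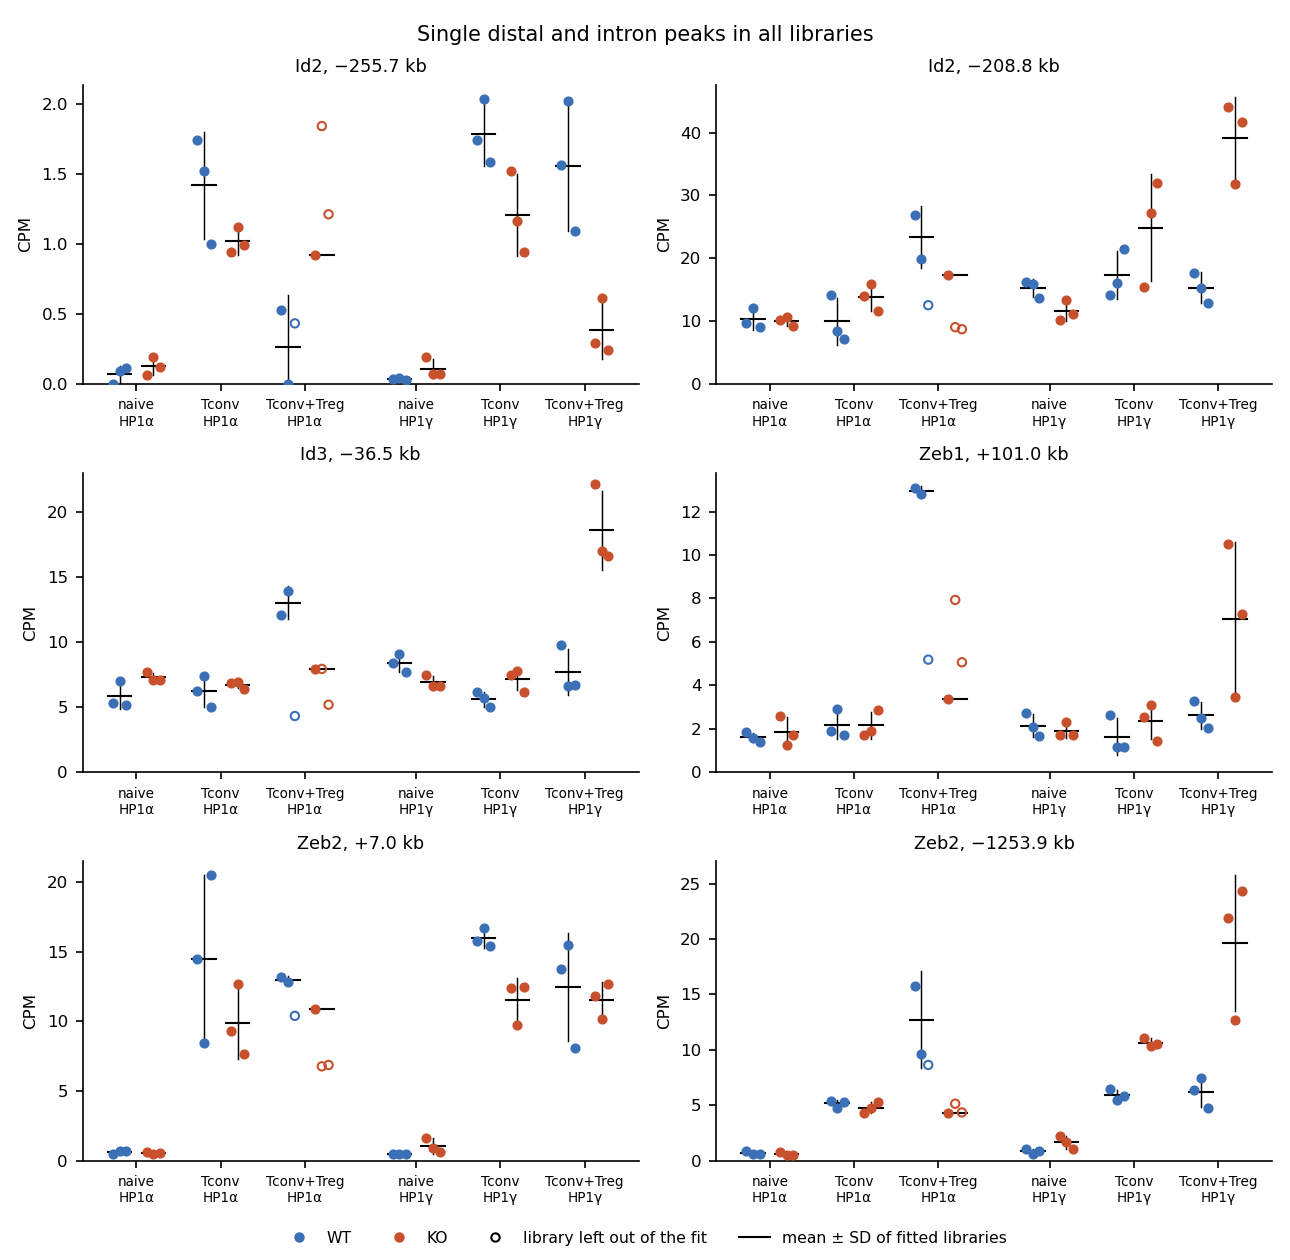
CPM (y axis, from 0) in every library, by condition, line and genotype (x axis), of 6 member peaks named in the text: Id2 -255.7 and -208.8 kb, Id3 -36.5 kb, Zeb1 101.0 kb, and Zeb2 7.0 and -1253.9 kb. Open points are the 3 libraries left out by the study, and black bars show the mean and SD of the libraries kept. With Treg the HP1γ KO libraries lie below WT at Id2 -255.7 kb and above WT at Id2 -208.8 kb, Id3 -36.5 kb and Zeb2 -1253.9 kb, and Zeb2 7.0 kb is close to 0 in naive libraries.

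To ask how the presence of Treg changes the 4 loci, Tconv with Treg were compared with Tconv without, within each genotype. In HP1γ KO cells 22 members were called, 6 higher and 16 lower (6.10% and 2.06% of all peaks). Of these 15 lower calls were at Id2, where the median was -0.66 and 49 of 59 peaks lay below 0. The peak with the smallest p at Id2 lay at -44.5 kb (Interval_14556, chr12:25191371-25192280), in Gm36287. KO libraries there had 4.76, 3.91 and 5.60 CPM without Treg and 1.99, 2.00 and 2.29 CPM with Treg. The groups did not overlap, with a log2 fold change of -1.26 ± 0.22 (SE, adjusted p 0.00116). The Id3 peak at -36.5 kb rose with Treg in KO cells by 1.41 ± 0.16 (SE, adjusted p 5.53e-05), the Zeb1 peak at 101.0 kb by 1.68 ± 0.36 (SE, adjusted p 0.00507), and the Zeb2 peak at -68.1 kb had -1.92 ± 0.39 (SE, adjusted p 0.00237). These values share the KO libraries with Treg with the comparison of KO and WT above. Marker sums moved here as well. B cell genes had 11.1 to 15.4 CPM without and 16.2 to 20.5 CPM with Treg, and myeloid genes 50.0 to 53.9 and 57.9 to 74.2 CPM, where the mean was 23.8 and 41.8 CPM at Cebpa but 13.6 and 13.3 at Spi1, 11.9 and 9.87 at Cd14 and 2.40 and 1.05 at Itgam. Treg genes had 152 to 157 CPM without and 168 to 174 CPM with Treg, with means of 51.7 and 74.0 CPM at Ikzf2 but 103 and 97.8 CPM at Foxp3. Their part in the result was not tested. The count was 6 without KO replicate 1 with Treg and 14 without KO replicate 1 without Treg. It was 1 with the 2 groups fitted alone.

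In HP1γ WT cells 0 members were called by edgeR with Treg against without (0.138% of all peaks), and DESeq2 called 0. An unadjusted p under 0.05 was found for 25 of the 113 members and 14521 of all 71508 peaks. With the replicate number as a block, which pairs the libraries here, 1 was called, the Id3 peak at -15.7 kb (log2 fold change 1.54, adjusted p 0.0417). The Id2 peaks leaned downward in WT cells as well, with 54 of 59 below 0 and a median of -0.37. Whether KO and WT cells differ in their change with Treg was tested as an interaction. It called 0 members by edgeR (0.00140% of all peaks), and DESeq2 called 1. Of the members 16 had an unadjusted p under 0.05, as had 9152 of all 71508 peaks. The smallest p at Id2 was again at -255.7 kb, with a difference of log2 fold changes of -1.44 ± 0.39 (SE, adjusted p 0.272), and at Id3 at -36.5 kb, with 0.92 ± 0.25 (SE, adjusted p 0.281). Without KO replicate 2 with Treg, edgeR called 2 members in the interaction.

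HP1α KO and WT cells were compared in the same way. In naive cells edgeR called 0 members (0.00559% of all peaks), and DESeq2 called 0. There 4 members and 835 of all 71509 peaks had an unadjusted p under 0.05. In Tconv edgeR called 0 members (0.0210% of all peaks), and DESeq2 called 0. There 10 members and 3450 of all 71509 peaks had an unadjusted p under 0.05. The median log2 fold change in Tconv was -0.04 for Id2, -0.05 for Id3, -0.32 for Zeb1 and -0.16 for Zeb2, and all 17 Zeb1 peaks lay below 0. In Tconv with Treg, where 1 KO library was set against 2 WT libraries and is assumed to vary like the other groups, 3 members were called lower in KO and 0 higher, against 1.42% and 0.218% of all peaks. The Zeb1 peak at 101.0 kb had 13.1 and 12.8 CPM in the kept WT libraries and 3.38 CPM in the KO library (log2 fold change -1.94 ± 0.39, SE, adjusted p 0.0178). The libraries left out had 5.18 CPM in WT and 7.93 and 5.06 CPM in KO, so the groups overlapped with them, and over all 18 libraries the call was lost (-1.29, adjusted p 0.142).

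The Zeb2 peak at -1253.9 kb had 15.8 and 9.62 CPM in the kept HP1α WT libraries with Treg and 4.30 CPM in the KO library, a log2 fold change of -1.78 ± 0.30 (SE, adjusted p 0.00544). Including the libraries left out, with 8.63 CPM in WT and 5.13 and 4.34 CPM in KO, the groups stayed apart, and the peak was the only member called over all 18 libraries, against 0.741% of all peaks (-1.54 ± 0.26, SE, adjusted p 0.00658). Its neighbour at -1255.6 kb had -2.04 ± 0.44 (SE, adjusted p 0.0215) over the libraries kept and -1.36 ± 0.39 (SE, adjusted p 0.111) over all 18. The direction at this site was opposite to that between HP1γ KO and WT, where KO was higher. The 2 lines were fitted apart and the difference between them was not tested. Without WT replicate 1 the 3 calls fell to 0 and without WT replicate 2 to 2. With log2 depth as a covariate the count was 0, as with the 2 groups fitted alone, and DESeq2 called 10. B cell genes had 20.9 to 21.4 CPM in the kept WT libraries with Treg and 10.7 CPM in the KO library, T cell genes 221 to 312 and 449 CPM, and myeloid genes 48.1 to 67.9 and 44.6 CPM. The means were 40.8 and 16.9 CPM at Cebpa, 6.17 and 11.5 CPM at Spi1, 70.9 and 59.4 CPM at Ikzf2 and 66.5 and 81.3 CPM at Foxp3. Their part in the result was not tested. Over the Id2 peaks the median was 0.75, or 0.67 with the 1 peak at the count floor held at its bound and 0.54 over all 18 libraries, and 0 were called.

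With Treg against without, HP1α WT cells had 8 members called higher and 10 lower (4.92% and 1.84% of all peaks). Id2 held 10 lower and 2 higher calls, with a median of -1.05 (0.05 higher with the peak at the count floor held at its bound), Zeb2 5 higher calls with a median of 0.91, and Zeb1 1 higher call. Over all 18 libraries the median was -0.92 for Id2, and 21 of the 27 Zeb2 peaks lay above 0 with a slightly higher median. At Id2 -241.8 kb (Interval_14591, chr12:25388261-25389960) the WT libraries without Treg had 26.8, 22.1 and 15.8 CPM and the kept libraries with Treg 6.31 and 4.28 CPM, next to 6.69 CPM in the library left out. These groups did not overlap, with a log2 fold change of -1.95 ± 0.37 (SE, adjusted p 0.00393), or -1.93 over all 18 libraries. The Zeb1 peak at 101.0 kb had 1.88, 2.91 and 1.71 CPM without Treg and 13.1 and 12.8 CPM with Treg (2.63 ± 0.38, SE, adjusted p 0.000497, or 2.38 over all 18). The Zeb2 peak at -1253.9 kb had 5.42, 4.77 and 5.26 CPM without Treg and 15.8 and 9.62 CPM with it (1.52 ± 0.26, SE, adjusted p 0.00182, or 1.34 over all 18). All calls were lost without WT replicate 1 with Treg, which leaves the library of 1.49 M, and 6 were made without WT replicate 1 without Treg. Over all 18 libraries 20 were called (7.79% of all peaks), and with log2 depth as a covariate 7. B cell genes moved with this comparison, with 8.82 to 9.89 CPM without Treg and 20.9 to 21.4 CPM with Treg, and means of 5.25 and 15.2 CPM at Pax5 and of 4.02 and 5.93 CPM at Ebf1. Myeloid genes had 43.8 to 46.9 CPM without and 48.1 to 67.9 CPM with Treg, with means of 18.9 and 40.8 CPM at Cebpa but 14.2 and 6.17 CPM at Spi1. At Ikzf2 the means were 37.2 and 70.9 CPM, and at Foxp3 79.8 and 66.5 CPM. T cell genes had 329 to 469 CPM without Treg and 221 to 312 CPM with it. Their part in the result was not tested.

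In HP1α KO cells 0 members were called with Treg against without by edgeR (0.548% of all peaks), 9 had an unadjusted p under 0.05, and over all 18 libraries 0 were called (1.45% of all peaks). The interaction of genotype and Treg called 0 members by edgeR (0.0461% of all peaks), with 21 at an unadjusted p under 0.05, 0 by DESeq2 and 0 over all 18 libraries (0% of all peaks). Its smallest p was at Zeb2 -1253.9 kb, with log2 fold changes of 1.52 in WT and -0.09 in KO and a difference of -1.60 ± 0.34 (SE, adjusted p 0.107), or -1.40 over all 18 libraries (adjusted p 0.268).

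**Figure D5:**
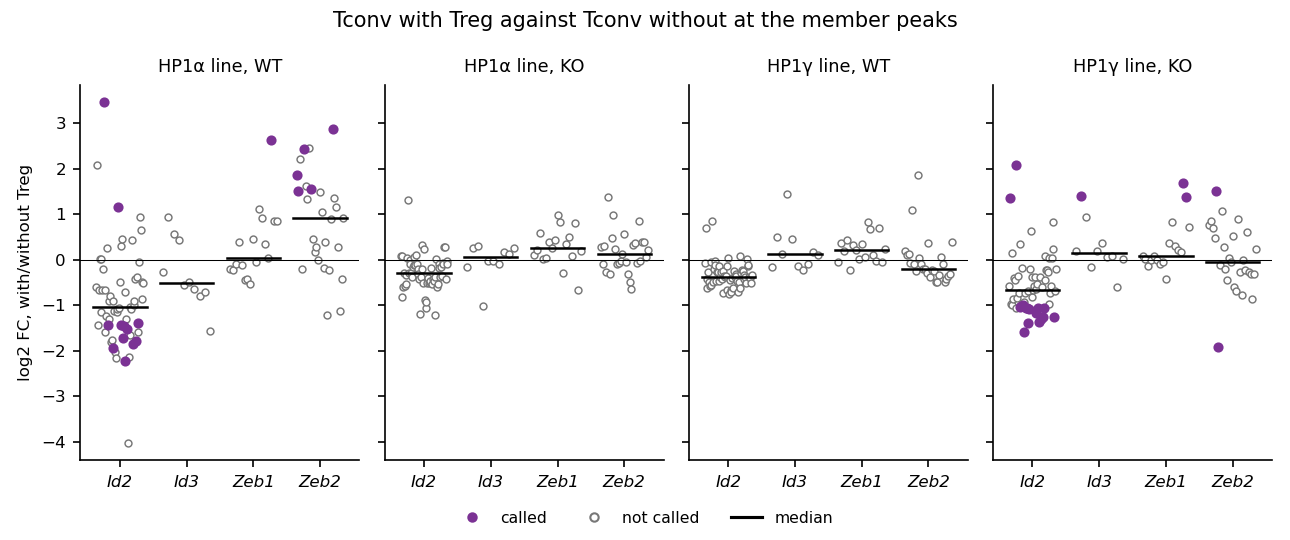
Log2 fold change of Tconv with Treg against without (y axis) for each peak of Id2, Id3, Zeb1 and Zeb2 (x axis) in HP1α WT, HP1α KO, HP1γ WT and HP1γ KO cells (panels). Filled points are called peaks. The Id2 peaks lie mostly below 0 in all 4 panels, with called peaks in HP1α WT and HP1γ KO cells (18 and 22 members in all) and none in the other 2 panels.

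The peaks called in the 2 lines were set side by side where the comparisons share no library. Of the 17 Id2 peaks lower in HP1γ KO than in WT with Treg, 2 (11.8%) were among the 10 lower in HP1α WT cells with Treg than without (20.0% of those). Of the 8 members called higher in each of these comparisons, 5 were shared (62.5% of either list). Over all peaks 11.7% and 34.2% of the lower calls and 46.0% and 60.6% of the higher calls were shared in the same way. The 5 higher calls shared by members included Zeb1 101.0 kb, Zeb2 -1253.9 kb, Id2 -208.8 kb and Id2 -310.6 kb. At Id2 -310.6 kb (Interval_14603, chr12:25457701-25458040) the HP1α WT libraries had 0.148, 0.651 and 0.853 CPM without Treg and 3.16 and 5.35 CPM with Treg, and the HP1γ KO libraries with Treg had 2.57, 0.966 and 1.38 CPM against 0.485, 0.373 and 0.714 CPM in WT. It was low in every naive library.

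Peaks of the genes that work with Id and Zeb proteins were counted by the nearest protein-coding TSS. From naive to Tconv in HP1γ WT cells, the E protein and Id relatives (Tcf3, Tcf4, Tcf12, Id1 and Id4) had 5 of 44 peaks higher and 28 lower, with a median log2 fold change of -1.74. Tcf4, which encodes the E protein E2-2, accounted for 22 of the lower calls among its 25 peaks, and Tcf12, which encodes HEB, for 6 of 12. Over all peaks 24.5% were called higher and 22.0% lower. The corepressors Ctbp1 and Ctbp2 had 2 of 5 peaks higher and 0 lower. Genes of the effector side (Tbx21, Prdm1, Klrg1, Cx3cr1, Gzmb, Bhlhe40 and Il12rb2) had 94 of 123 peaks higher (76.4%) and 2 lower, with a median of 3.32. These included all 9 peaks of Tbx21, the T-bet gene, and all 12 of Klrg1, a receptor of terminal effector cells. Genes of the memory and naive side (which included Tcf7, Lef1, Bach2, Bcl6, Eomes, Foxo1, Ccr7 and Il7r) had 27 of 310 peaks higher and 179 lower (57.7%, median -1.28), with 14 of 19 peaks lower at Ccr7, the lymph node homing receptor, and 57 of 83 at Bach2. In HP1α WT cells the same counts were 5 and 23, 2 and 0, 91 and 3, and 23 and 154 (24.9% and 17.5% over all peaks).

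Between HP1γ KO and WT with Treg, the effector side had 9 of 123 peaks higher (7.32%) and 21 lower (17.1%, median -0.31). Over all peaks 6.48% were higher and 5.38% lower. At Il12rb2, an IL-12 receptor chain, 1 of 14 peaks was higher and 8 lower, whereas at Prdm1, which encodes Blimp-1, 7 of 39 were higher and 2 lower. The memory and naive side had 9 of 310 higher (2.90%) and 34 lower (median -0.57), with 8 lower calls each at Il7r (20 peaks), Lef1 (41 peaks) and Bach2 (83 peaks). E protein and Id relatives had 2 higher and 1 lower, and the corepressors 1 and 1. Without Treg, where 1.69% of all peaks were higher and 1.66% lower, these counts were 1 and 4 for the effector side, 0 and 2 for the memory and naive side, 2 and 0 for E protein and Id relatives, and 0 and 0 for the corepressors. In HP1γ KO cells with Treg against without they were 8 and 17, 12 and 9, 2 and 0, and 0 and 1, with 6.10% and 2.06% over all peaks. In HP1α WT cells they were 6 and 8, 15 and 6, 1 and 0, and 0 and 0, with 4.92% and 1.84% over all peaks. Most of these counts are small, and shares near those of all peaks are not results about the lists.

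The 300 bases around the middle of every peak, which reach beyond a narrower peak, were searched on both strands. The motif CAGGTG, an E-box bound by E proteins and ZEB proteins, was present in 28.3% of the 113 members and in 22.9% of all peaks, and any E-box (CANNTG, which includes the former) in 83.2% and 78.7%. TGANTCA (AP-1) was found in 21.2% of members against 13.0% of all peaks, TGTGGT (Runx) in 36.3% against 30.0%, CTTTGAA (TCF/LEF) in 10.6% against 7.93% and GGTGTGA (T-box) in 1.77% against 5.58%. At Zeb2 11 of 27 peaks (40.7%) held an AP-1 match. Of the 67 members called higher in HP1γ WT Tconv than in naive cells, 26.9% held an AP-1 and 47.8% a Runx match, and of the 12 called lower 0 and 3 did. Of the 17 Id2 peaks lower in HP1γ KO than in WT with Treg, 17.6% held an AP-1 match. Over whole peaks, whose widths differ, members and all peaks were closer for CAGGTG (52.2% and 50.5%) and apart for AP-1 (45.1% and 30.6%), while the order turned for the T-box motif (17.7% of members, above all peaks) and for any E-box (92.0% and 93.5%). These shares describe letters in the windows searched and say nothing of what binds there.

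The genes whose TSS peak varied most like that of each member over the 12 group means of log2 CPM were picked from 9965 protein-coding genes. For Id2 they included Cd6 (Pearson r 0.982) and Pigv (0.980). For Id3 they were Irak3 (0.987), Tcf20 (0.985) and Atp6v0a1 (0.985), and for Zeb1 they were Tgfbr2 (0.984), S1pr1 (0.984), a receptor for exit from lymph nodes, and Cytip (0.981). For Zeb2 they were Vezt (0.989), Ybx3 (0.987) and Slc17a6 (0.983). The points share their libraries and the shift from naive to transferred cells, so these values are descriptions.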

How the data were processed

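The authors trimmed reads with Trim Galore 0.6.7, aligned them to GRCm39 with BWA-MEM2, removed duplicates, reads of low mapping quality and blacklisted regions, called peaks in each sample with HMMRATAC, merged the peaks of all samples with BEDTools and counted reads with featureCounts 2.0.3. They deposited raw counts per consensus peak, with no normalization, and neighbouring peaks can share a read. Of the 71512 intervals in the table, 3 without width were dropped. All 36 columns matched a sample, and 0 columns of per-sample values were left unused.

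The HP1α line (15 libraries kept by the study, with a fit of all 18 beside it) and the HP1γ line (18 libraries) were fitted apart in edgeR 4.0.16 (R 4.3.3, limma 3.58.1) and tested by quasi-likelihood, after filterByExpr and TMM scaling. All 113 members passed the filter. P-values were two-sided and adjusted with Benjamini-Hochberg over all peaks tested in a comparison (71509 and 71508). A call took an adjusted p below 0.05 together with a change of more than 1 in log2. For log2 CPM, on which groups were said not to overlap, the prior count was 2. Replicates varied with a biological coefficient of variation of 26.6% (HP1α), 30.6% (HP1α, all libraries) and 22.2% (HP1γ). Where every library of a group had 3 counts or fewer, no log2 fold change against that group is printed for the peak. Such peaks remain in the figures, the counts of calls and the medians. The test was also run on simulated counts with known changes, and its recovery of them is not reported here.

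Named for each gene and comparison were the TSS peak and the members with the smallest p, up to 1 higher and 1 lower call. Other peaks named, mostly calls and exceptions at Id2 and Zeb2, were chosen after their values were seen. Members and lists were chosen with earlier results of these data known. There were 16 comparisons. Alternatives comprised scaling by library size only, loess offsets, no filter, DESeq2 1.42.0, the groups compared alone, the replicate number as a block, log2 depth as a covariate, assignment to the nearest TSS of any gene and leaving out each library in turn. After the data had been seen, 3 more were added, the earlier version of the edgeR fit, members within 100 kb of the TSS only and, for 2 HP1α comparisons, the block in the fit of the line.

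To check for pairing, deviations from the group mean were correlated across peaks between same-numbered libraries. The numbers were taken to pair the libraries of naive HP1α KO and WT (3 correlations from 0.25 to 0.50), HP1γ KO and WT given Treg (0.15 to 0.32) and HP1γ WT given Treg or not (0.20 to 0.29), where each was above 0.1. What a number stands for is not in the labels. Matplotlib 3.10.9 (Python 3.11.15) drew the figures. RNA-seq of the same study was not used here, and a few genes that the rules would name are not reported here.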

Additional observations from a re-analysis of the deposited data

How the results depend on the processing

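Depth and the number of libraries limit the comparisons of the HP1α line with Treg, where a group holds 1 or 2 kept libraries and 1 of them has 1.49 M reads in peaks. Of 1794 values of the named peaks under the alternatives, 1736 stayed called or stayed uncalled. A further 40 were no longer called and 18 were called only under the alternative. Of the peaks called in the main fit 0 reversed in direction, while the direction of uncalled peaks was not checked. A value missing under an alternative was counted among the 1736. The cause of the changes below was not tested, apart from assignment, where fewer peaks are members.

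Counts of members called moved as follows. Where another fit or tool was used, other than the fit of all 18 libraries, the share of all peaks called was not worked out. With the nearest TSS of any gene (36 members) they were 17 and 18 for HP1α WT and KO Tconv against naive cells, 20 and 19 for HP1γ WT and KO, 1 for HP1α KO against WT with Treg, 2 for HP1α WT with Treg against without, 1 and 2 for HP1γ KO against WT in Tconv and with Treg, and 2 for HP1γ KO with Treg against without. Within 100 kb of the TSS they were 29, 33, 34, 35, 0, 5, 1, 4 and 4 in the same order. For HP1α KO against WT with Treg the count of 3 was 1 over all 18 libraries, 5 with library size alone, 0 with log2 depth, the earlier edgeR fit or only the groups compared, and 10 with DESeq2. For HP1α WT with Treg against without it was 7 with log2 depth. For HP1γ KO against WT in naive cells the count of 0 was 2 with the earlier edgeR fit, 4 with only the groups compared and 14 with DESeq2. In Tconv the count of 2 was 0 with library size alone or only the groups compared, 6 with loess offsets, and 1 with the earlier edgeR fit or DESeq2. With Treg it was 14 with only the groups compared, and for HP1γ KO with Treg against without it was 1. DESeq2 called 1 in the HP1γ interaction. With loess offsets the higher and lower calls were 12 and 12 for HP1γ KO against WT with Treg, 6 and 10 for HP1γ KO with Treg against without, and 9 and 8 for HP1α WT with Treg against without.

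Leaving out 1 library gave 62 to 76 and 70 to 78 calls for HP1α WT and KO Tconv against naive cells, and 78 to 81 and 70 to 76 for HP1γ. For KO against WT it gave 0 to 0, 0 to 1 and 0 to 2 for HP1α in naive cells, Tconv and Tconv with Treg, and 0 to 0, 0 to 9 and 11 to 35 for HP1γ. With Treg against without it gave 0 to 25 and 0 to 0 for HP1α WT and KO and 0 to 1 and 6 to 27 for HP1γ. The interaction gave 0 to 0 and 0 to 2. The 1 call in HP1α Tconv came without KO replicate 1, the 2 calls in the HP1γ interaction without KO replicate 2 with Treg, and the 1 call in HP1γ WT with Treg against without came without WT replicate 2 with Treg.

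With the replicate number as a block, in the pairs where all correlations passed, HP1γ KO against WT with Treg and HP1γ WT with Treg against without changed as given above (1 call in the latter), and HP1α KO against WT in naive cells had 0 calls again. In both HP1γ pairs all 6 libraries correlated best with their own number, in the HP1α pair 3 of 6. In groups that share only a number, the block moved the count from 0 to 11 for HP1γ KO against WT in naive cells (3 of 6 libraries correlated best with their own number), from 22 to 0 for HP1γ KO with Treg against without (0 of 6) and from 18 to 5 for HP1α WT with Treg against without, where too few libraries were kept for the check. For HP1α KO against WT with Treg and HP1α KO with Treg against without, the 2 groups alone leave no residual degrees of freedom for a block. With the replicate number as a block in a fit of all 15 kept libraries, chosen after seeing the data, the counts moved from 3 to 7 (4 higher and 3 lower) and from 0 to 1.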
